A study of Mus musculus with 4 samples.

Results

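The 3006 combined regions that carried a listed peak of the transcription factor isoform Mef2Da1 and none of the isoform Mef2Da2 were examined. Members were the regions that shared at least 1 bp with a Mef2Da1 peak and no bp with a Mef2Da2 peak. They made up 15.2% of the 19749 combined regions and 36.4% of the 8253 regions with any Mef2Da1 peak. The 3 other classes were 5247 regions with peaks of both isoforms, 3968 with a Mef2Da2 peak only and 7528 with no listed peak. The members were chosen by the listed peaks, and so by the coverage heights and −log10 p of Mef2Da1 and Mef2Da2. Those values are therefore given as a description and are not tested. The label of the class refers to the lists: Mef2Da2 coverage was present in every member, at heights of 4 to 172. Its peptide-blocked control, described below, also had coverage in every member, at 1 to 37. In 268 members (8.92%) the Mef2Da2 height was at or below that of this control, where 2.54% of all regions had this.

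The data come from chromatin immunoprecipitation followed by sequencing (ChIP-seq) in C2C12 cells, a mouse myoblast line, after 5 days in low-serum medium with insulin and transferrin, in which myoblasts fuse into myotubes. The 4 groups were Mef2Da1, its control Mef2Da1-BLOCK, Mef2Da2 and its control Mef2Da2-BLOCK, where BLOCK stands for the same antibody blocked with its peptide. All 4 used endogenous protein of the same line at the same time, and each antibody was raised to its own peptide coupled to a carrier protein. Each group held 1 library, so no value has a replicate error and no difference between libraries can be set against a spread. Intervals are exact (Clopper-Pearson) 95% binomial intervals over regions and cover counting error only. Heights are the authors' coverage values, read here as the maximal coverage in a region. They were not scaled to depth here, and depth was unknown.

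MEF2 proteins bind A/T-rich DNA through a MADS box and act with myogenic basic helix-loop-helix factors to turn on muscle genes. Mef2D transcripts carry either of a pair of mutually exclusive exons. Mef2Da1 is found in many tissues and can be phosphorylated by protein kinase A, which favours binding of class IIa histone deacetylases, whereas Mef2Da2 is made in muscle as it differentiates and lacks those phosphorylation sites. The question behind the class is where the broadly expressed isoform was detected without the muscle isoform. Regions are identified by their mm9 coordinates, and genes were not assigned because no annotation or genome of that build was used here.

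Mef2Da1 signal in the members was modest. Their Mef2Da1 height had a median of 51, with quartiles of 48 and 57 and a range of 42 to 167, against a median of 65 and a range of 42 to 808 in regions with peaks of both. Of the 3006 members, 2459 (81.8%) had a height of 42 to 59, 148 reached 70 and 7 reached 100. In Mef2Da1-BLOCK the median height of the members was 22 (range 2 to 45). For Mef2Da2 it was 28 (range 4 to 172), and for Mef2Da2-BLOCK 15 (range 1 to 37). The height ranges of Mef2Da1 and of its blocked control therefore overlapped only between 42 and 45. The ranges of Mef2Da2 and Mef2Da2-BLOCK overlapped between 4 and 37, which holds most of the members. This contrast follows from the choice of the class, which required a listed Mef2Da1 peak and no Mef2Da2 peak. The lowest height in the Mef2Da1 list was itself 42, so nothing is read from the ranges.

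**Figure D1:**
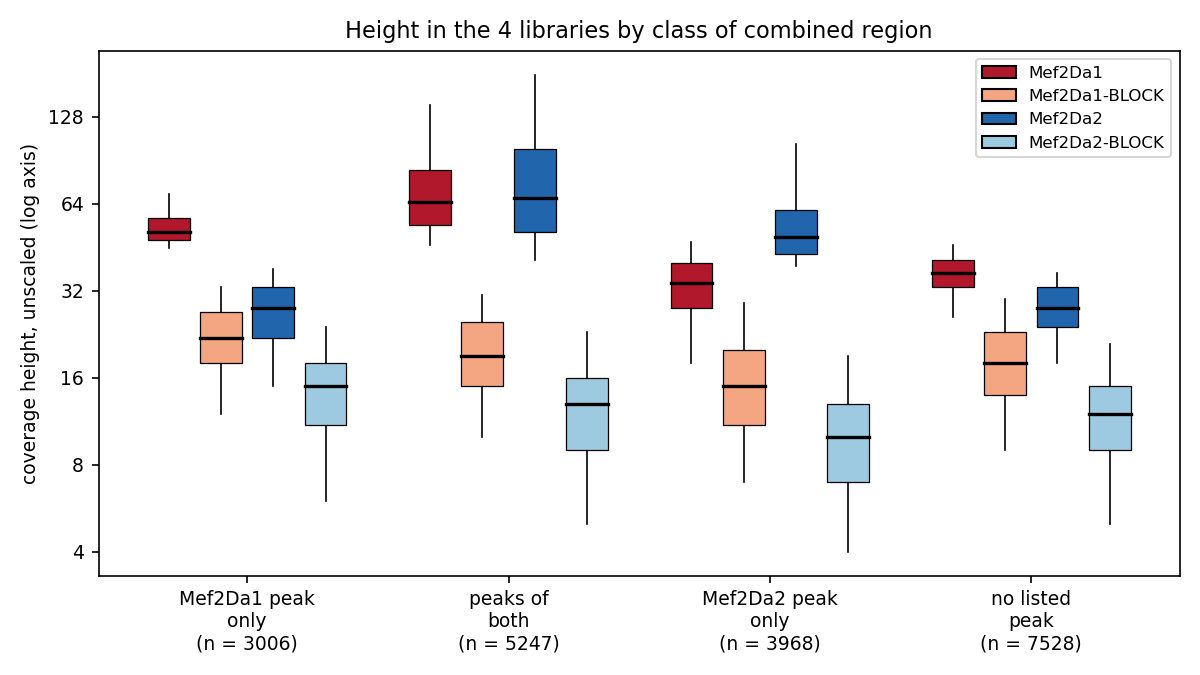
Coverage height (unscaled, log axis) of Mef2Da1, Mef2Da1-BLOCK, Mef2Da2 and Mef2Da2-BLOCK in each class of combined region; boxes span the quartiles with a line at the median, and whiskers run between the 5th and 95th percentiles. In regions with a Mef2Da1 peak only the medians were 51, 22, 28 and 15, and both blocked controls were higher there than in the other classes.

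The members held 16.5% of the total Mef2Da1 height over the table and 8.58% of the total Mef2Da2 height. They held 17.7% of the Mef2Da1-BLOCK total and 18.2% of the Mef2Da2-BLOCK total. Their share of each blocked total was thus above their 15.2% share of the regions. Regions with peaks of both were also above their share, with 27.6% and 27.9% of these totals against 26.6% of the regions. The remaining classes held less than their shares of the regions.

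How often a Mef2Da1 region lacked a Mef2Da2 peak fell with its Mef2Da1 height. At a height of 42 to 47, 683 of 1069 regions with a Mef2Da1 peak were members (63.9%, interval 60.9 to 66.8). The share was 59.9% (57.7 to 62.1) at 48 to 53 and 42.8% (40.2 to 45.5) at 54 to 59. It was 27.3% (25.0 to 29.6) at 60 to 69 and 9.01% (7.64 to 10.5) at 70 to 99. At 100 or more, 7 of 808 regions were members (0.866%, interval 0.349 to 1.78). Among regions with a listed Mef2Da1 peak, the highest thus nearly all carried a Mef2Da2 peak as well. The class lay near the lower end of the Mef2Da1 list, whose lowest height was 42. Regions without a listed Mef2Da1 peak were not counted here, although those with a Mef2Da2 peak only reached a Mef2Da1 height of 350.

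Mef2Da2 height hardly followed Mef2Da1 height within the class. The median Mef2Da2 height of the members was 26 in the lowest of these Mef2Da1 bands, 27 and 28 in the next ones, 30 at 60 to 69 and 31 at 70 to 99. In regions with peaks of both it was 50, 52, 55, 62 and 78 in the same bands. Across the 3006 members the Spearman correlation of Mef2Da1 with Mef2Da2 height was 0.15. Members are not independent replicates and the range of both heights was limited by the choice of the class.

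**Figure D2:**
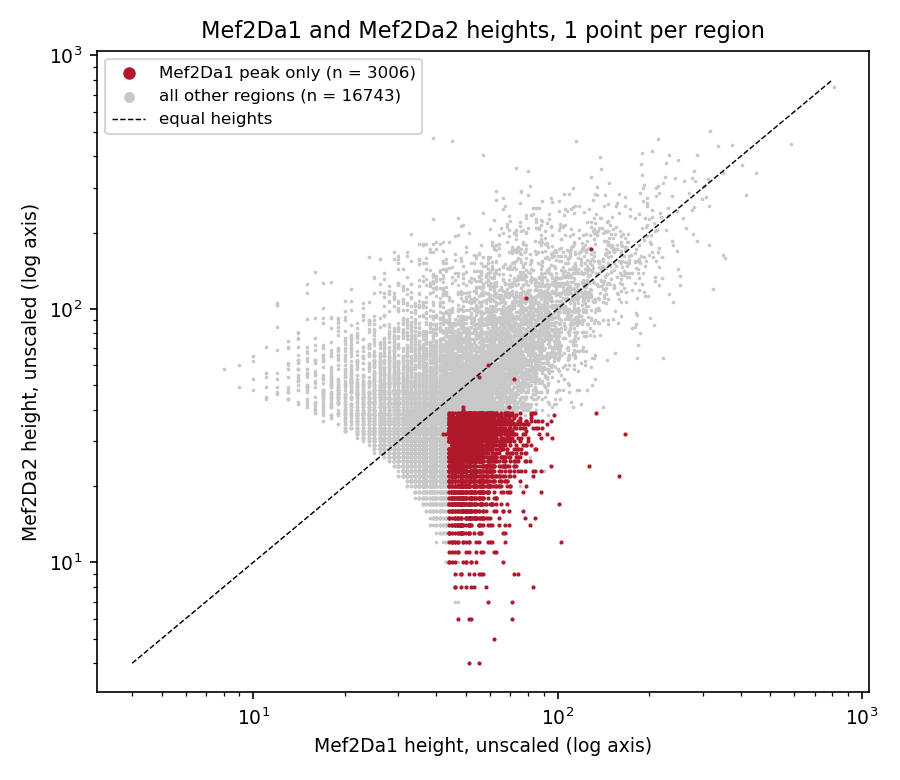
Mef2Da1 height (horizontal, log axis) against Mef2Da2 height (vertical, log axis), 1 point per combined region, with the 3006 members in red, all other regions in grey and a dashed line at equal heights. The members form a compact group to the right of a Mef2Da1 height of 42, and 3 of them lie above the line.

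The 10 members with the highest Mef2Da1 signal were found on 7 chromosomes, and one of them, on chromosome 9, is described with the Mef2Da2-rich members. The first, at chromosome 2, 56976370 to 56976791, had a height of 167 for Mef2Da1, 19 for Mef2Da1-BLOCK, 32 for Mef2Da2 and 5 for Mef2Da2-BLOCK. At chromosome 8, 86108658 to 86109184, the Mef2Da1 height was 159 against 36 in its blocked control, and Mef2Da2 stood at 22, the same as its blocked control at 22. These regions differ in the second isoform: with a pseudocount of 1, Mef2Da2 was 5.50-fold above Mef2Da2-BLOCK in the one on chromosome 2 and 1.00-fold in the one on chromosome 8. Chromosome 8, 47555832 to 47557080, had heights of 134 and 19 for Mef2Da1 and its blocked control, and 39 and 21 for Mef2Da2 and its blocked control. Chromosome 16, 17208816 to 17209498, had 127 and 28 for Mef2Da1 and 24 and 17 for Mef2Da2, in the same order. That region was the most isolated of the 10, with the nearest Mef2Da2 peak 352500 bp away.

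Chromosome 11, 69273356 to 69273925, came close to a Mef2Da1 signal alone: Mef2Da1 had a height of 103 against 25 in Mef2Da1-BLOCK, and Mef2Da2 had 12 against 11 in Mef2Da2-BLOCK. At chromosome 18, 12120885 to 12121384, the heights were 101 for Mef2Da1 against 35, and 17 for Mef2Da2 against 12. At chromosome 17, 66121730 to 66122401, they were 97 against 27 and 38 against 20. Mef2Da2 stayed less than 2-fold above its blocked control in each of these 3 regions.

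The last pair of the 10 were narrow regions of 359 and 385 bp. Chromosome 11, 99442959 to 99443318, had a Mef2Da1 height of 96 against 9 in Mef2Da1-BLOCK, and a Mef2Da2 height of 31 against 2 in Mef2Da2-BLOCK, ratios of 9.70-fold and 10.7-fold. Chromosome 18, 56973754 to 56974139, had 95 against 17 for Mef2Da1 and 36 against 13 for Mef2Da2. In the region on chromosome 11, the unscaled Mef2Da2 ratio was thus not below the Mef2Da1 ratio, although no Mef2Da2 peak was listed. With a blocked height of only 2, the Mef2Da2 ratio depends strongly on the pseudocount. The order of these ratios also depends on scaling, so nothing is read from it.

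The largest differences between the isoforms lay elsewhere. Among members with a Mef2Da1 height of 51 or more, the 5 largest ratios of Mef2Da1 to Mef2Da2 were 9.17-fold to 11.0-fold, with each library scaled to its total height over the table. At chromosome 3, 136362705 to 136362998, Mef2Da1 had 55 against 12 in its blocked control, and Mef2Da2 had 4 against 5. At chromosome 4, 98872544 to 98872910, the values were 62 against 19 and 5 against 16. At chromosome 3, 58218559 to 58219100, they were 51 against 15 and 4 against 15. In all 5 the Mef2Da2 height was below that of its own blocked control. The 5 were picked for a low Mef2Da2 height relative to Mef2Da1, which favours this by construction. A Mef2Da2 height at or below its blocked control was found in 8.92% of members and 2.54% of all regions.

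The other pair of large ratios had higher Mef2Da1 signal. Chromosome 9, 121450671 to 121451004, had a Mef2Da1 height of 71 against 6 in Mef2Da1-BLOCK, which is 10.3-fold, and a Mef2Da2 height of 6 against 8 in Mef2Da2-BLOCK. Chromosome 2, 167848975 to 167849712, had 83 against 17 and 8 against 12. Their nearest Mef2Da2 peaks were 96616 and 48691 bp away.

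Over the whole class the difference between the isoforms was smaller than these examples. Scaled to total height, the median log2 ratio of Mef2Da1 to Mef2Da2 was 0.89 (quartiles 0.64 and 1.22) in members. It was −0.03 where both isoforms had peaks and 0.35 where no peak was listed. Mef2Da1 was over 2-fold higher in 1201 of 3006 members (39.95%, interval 38.2 to 41.7), where 9.62% of all regions passed that fold. It was over 4-fold higher in 68 members (2.26%), where 0.395% of all regions were. Mef2Da2 was over 2-fold higher in 0 of 3006 members, where 7.03% of all regions were. These counts use the heights that the lists were made from, so nothing is read from them. Scaled to the median ratio the first share was 28.7%, and scaled to the totals of the blocked controls it was 9.02%, where 6.20% and 1.63% of all regions passed.

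Each isoform was next set against its own blocked control, without scaling. The fold of 2 was reached by Mef2Da1 in 2175 members (72.4%, interval 70.7 to 73.95), where 64.7% of all regions reached it, and by Mef2Da2 in 1214 members (40.4%, 38.6 to 42.2), where 75.0% of all regions did. Both isoforms reached it in 967 members (32.2%), where 52.4% of all regions did. Mef2Da1 alone reached it in 1208 members (40.2%), where 12.2% of all regions did. Mef2Da2 alone did so in 247 (8.22%, with 22.5% of all regions) and neither did in 584 (19.4%, with 12.8% of all regions). The class was chosen for a Mef2Da1 peak without a Mef2Da2 peak, which favours Mef2Da1 alone by construction, so nothing is read from these counts. In regions with no listed peak the shares were 32.1% for both, 14.7% for Mef2Da1 alone, 28.6% for Mef2Da2 alone and 24.6% for neither. With libraries scaled to total height, Mef2Da1 was at least 2-fold above its blocked control in 2.59% of members, where 7.63% of all regions were. That scaling sets the summed heights of both libraries over the combined regions equal, so it takes out enrichment that the regions share. Nothing is read from the scaled share.

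**Figure D3:**
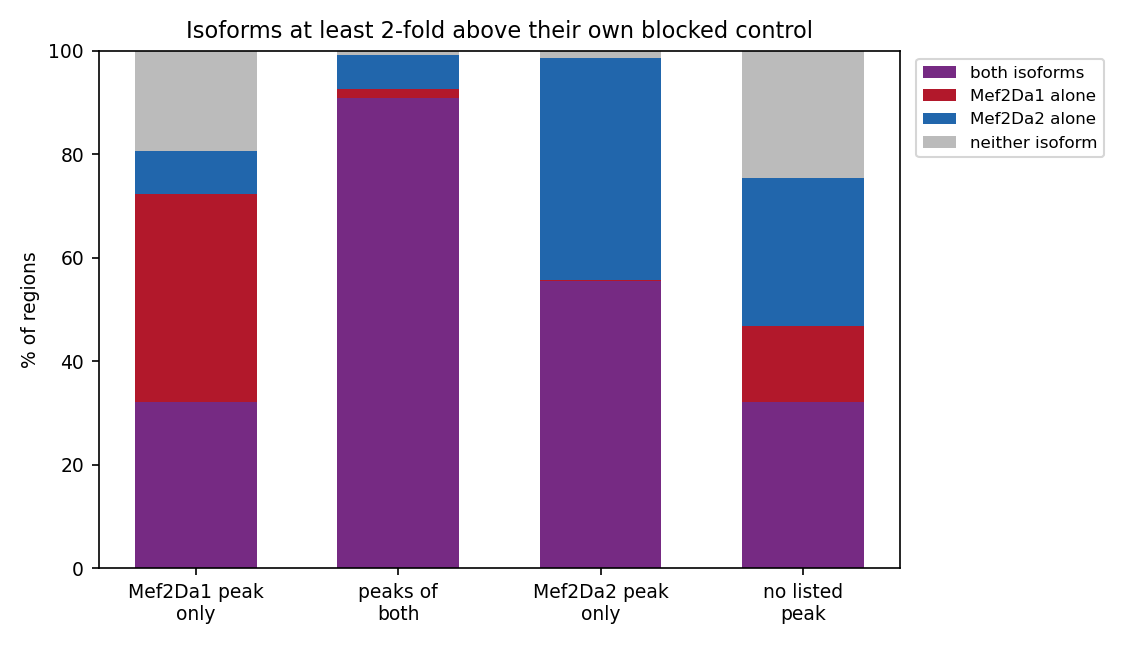
Percentage of regions in each class (horizontal) in which both isoforms, Mef2Da1 alone, Mef2Da2 alone or neither was at least 2-fold above its own blocked control, from unscaled heights with a pseudocount of 1. Mef2Da1 alone made up 40.2% of regions with a Mef2Da1 peak only, 1.72% of those with peaks of both, 0.302% of those with a Mef2Da2 peak only and 14.7% of those with no listed peak.

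The median heights of these 4 groups of members follow in part from how the groups were formed, since each is defined by heights over the blocked controls and the class confines Mef2Da1 height. Where both isoforms were above their controls, the median heights of Mef2Da1, Mef2Da1-BLOCK, Mef2Da2 and Mef2Da2-BLOCK were 52, 18, 32 and 11, in regions with a median width of 530 bp. Where Mef2Da1 alone was, they were 53, 21, 24 and 17, with a width of 657 bp. Where Mef2Da2 alone was, they were 48, 28, 31 and 12. Where neither was, they were 50, 29, 26 and 18, with the largest median width of the 4 groups, 714 bp.

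Blocked-control coverage was itself high in these regions. The median Mef2Da1-BLOCK height was 22 in members, against 19 in regions with peaks of both, 15 with a Mef2Da2 peak only and 18 with no listed peak. The median Mef2Da2-BLOCK height was 15 in members, against 13, 10 and 12 in the same classes. The deposited table also gives each blocked library a −log10 p column, read here as a score because some values are below 0. A Mef2Da1-BLOCK score of 3 or more was found in 793 members (26.4%, interval 24.8 to 28.0), where 16.5% of all regions had one, and a Mef2Da2-BLOCK score of 3 or more in 187 members (6.22%, 5.38 to 7.14), where 3.68% of all regions had one. Both blocked controls, of unlike antibodies, were thus raised in the members relative to the other classes. The sources used here do not say whether the peak caller used the blocked libraries, so the blocked heights may not be independent of the lists.

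The difference in blocked coverage was also present at like Mef2Da1 height. In the bands of 42 to 47, 48 to 53, 54 to 59, 60 to 69 and 70 to 99, the median Mef2Da1-BLOCK height of members was 21, 22, 23, 24 and 25. In regions with peaks of both it was 18, 18, 19, 20 and 20. For Mef2Da2-BLOCK the members had medians of 13, 15, 15, 16 and 15, against 11, 12, 12, 13 and 13. The members were thus higher by 2 to 5 units of height in each band and in both blocked libraries. The quartile ranges of the classes overlapped in every band.

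**Figure D4:**
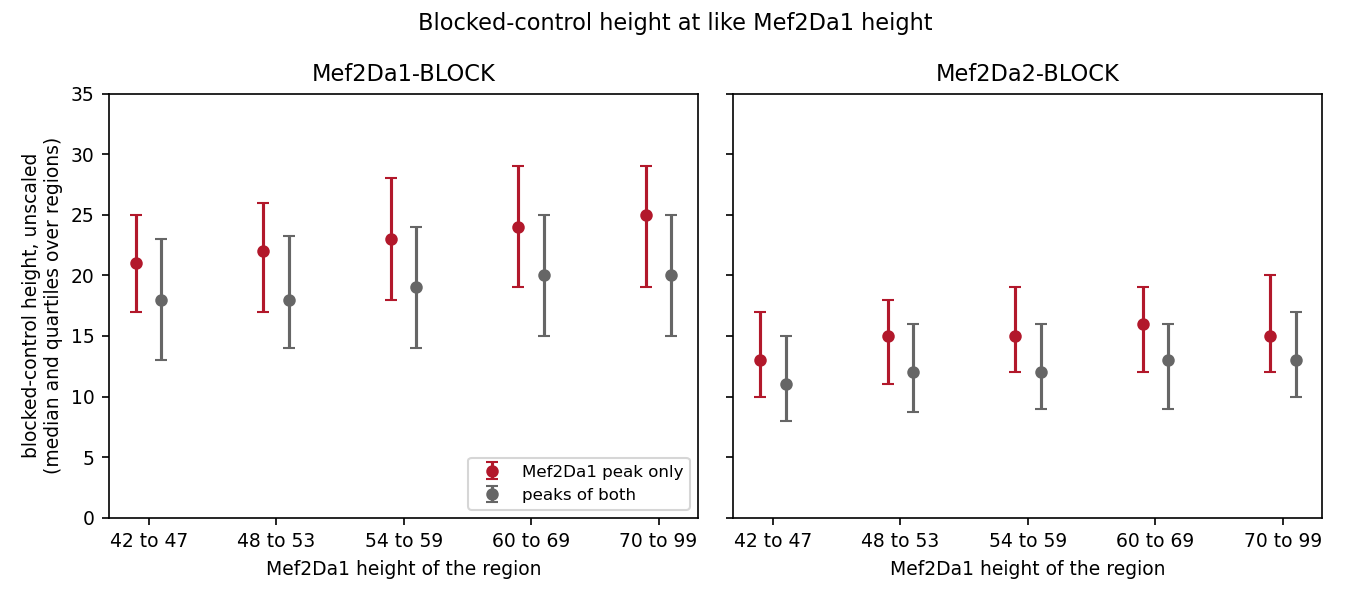
Median height (points) with quartiles (bars) of Mef2Da1-BLOCK (left) and Mef2Da2-BLOCK (right) in bands of Mef2Da1 height, for regions with a Mef2Da1 peak only (red) and with peaks of both (grey). The red medians lie above the grey ones in all 5 bands of both panels, from 21 against 18 in the lowest band to 25 against 20 in the highest for Mef2Da1-BLOCK, and the bars overlap.

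Region width moved with blocked coverage and is given beside it. Members had a median width of 624 bp (range 238 to 4008), against 694 bp for peaks of both, 488 bp for a Mef2Da2 peak only and 492 bp for no listed peak. Within the members, width had a Spearman correlation of 0.35 with Mef2Da1-BLOCK height and 0.39 with Mef2Da2-BLOCK height, against 0.17 with Mef2Da1 and 0.11 with Mef2Da2 height. A maximum, as heights are read here, can only be equal or higher over a wider region. Among regions of 200 to 499 bp, the median Mef2Da1-BLOCK height was 19 in 930 members, against 15 with peaks of both, 13 with a Mef2Da2 peak only and 16 with no listed peak. Among those of 1000 bp or more it was 26 in 412 members, against 23 in each of the other classes. Within 500 to 749 bp and at a Mef2Da1 height of 48 to 53, the medians of Mef2Da1-BLOCK and Mef2Da2-BLOCK were 22 and 15 in 446 members, and 18 and 11 in 315 regions with peaks of both. The members were thus higher in blocked coverage at like width too.

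The share of members in which Mef2Da1 was at least 2-fold above its blocked control changed with width: it was 78.7% at 200 to 499 bp, 73.7% at 500 to 749 bp, 68.8% at 750 to 999 bp and 59.5% at 1000 bp or more. Over all regions it was 64.7%, 64.3%, 64.4% and 65.9% in the same bands. With peaks of both it was 94.1%, 92.0%, 93.1% and 91.7%, with a Mef2Da2 peak only 59.5%, 54.3%, 50.8% and 36.6%, and with no listed peak 55.8%, 43.1%, 29.3% and 22.1%. The widest member, at chromosome 9, 66359290 to 66363298, was 4008 bp long and had heights of 49 for Mef2Da1, 29 for Mef2Da1-BLOCK, 39 for Mef2Da2 and 21 for Mef2Da2-BLOCK. The share was lower in the widest band than in the narrowest in each of the 4 classes, but not over all regions, where the mix of classes changed with width.

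Mef2Da2 coverage in the members spread over a continuum, mostly but not wholly below the lowest height in the Mef2Da2 list. Heights of 20 to 34 were found in the greater part: 572 members (19.0%) had 20 to 24, 706 (23.5%) had 25 to 29 and 695 (23.1%) had 30 to 34. Another 543 (18.1%) had 35 to 39, 342 (11.4%) had 15 to 19 and 140 (4.66%) had 14 or less. In that lowest group the median Mef2Da2 height of 12.5 was near the median of 12 in Mef2Da2-BLOCK. In 268 members (8.92%, interval 7.92 to 9.99) the Mef2Da2 height was at or below that of Mef2Da2-BLOCK, where 2.54% of all regions had this. The lowest height in the Mef2Da2 list was 34, and 705 members (23.5%) had a Mef2Da2 height at or above that. The median over all regions was 37. Regions with no listed peak had an upper quartile of 33 and a 95th percentile of 37, against 33 and 38 in members. Few listed regions were that low: the 5th percentile was 41 with peaks of both and 39 with a Mef2Da2 peak only.

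At the upper end stood 8 members with a Mef2Da2 height of 40 or more, a group picked after its values were seen. In these 8 the Mef2Da2-BLOCK height was 24 to 35 (median 33.5). Among regions with a listed Mef2Da2 peak and a Mef2Da2 height of 40 to 172, a blocked height of 24 or more was found in 192 of 4830 with peaks of both (3.98%) and in 42 of 3640 with a Mef2Da2 peak only (1.15%). The bounds of 24, 40 and 172 are those of the 8 members themselves, so these counts describe the regions with a listed peak and test nothing. At chromosome 9, 63550059 to 63551635, Mef2Da2 had 172 against 34 in Mef2Da2-BLOCK, and Mef2Da1 had 129 against 30. At chromosome 6, 148719738 to 148720458, Mef2Da2 had 110 against 30, and Mef2Da1 had 79 against 22. Both Mef2Da2 heights exceeded 67, the median of regions with peaks of both.

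The others of this kind were weaker. Chromosome 12, 74311449 to 74311906, reached 60 in Mef2Da2 against 24 in its blocked control, and 59 in Mef2Da1 against 15. Chromosome 11, 76460705 to 76461382, had 54 against 33 for Mef2Da2 and 55 against 17 for Mef2Da1. Chromosome 1, 94803246 to 94804027, had 53 against 34 for Mef2Da2 and 72 against 27 for Mef2Da1, and a listed Mef2Da2 peak lay 131 bp from its edge. Only 3 members had a Mef2Da2 height above their Mef2Da1 height, the ones on chromosomes 9, 6 and 12 named here, where 37.8% of all regions had.

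The −log10 p of the table and of the lists did not draw the same line. In 47 members (1.56%, where 46.1% of all regions had such a value) the table gave Mef2Da2 a −log10 p of 6 or more, although no peak was listed. Of these, 42 lay between 6 and 7, with a median Mef2Da2 height of 38 against 11.5 in Mef2Da2-BLOCK. The other 5 were above 7, with a median of 60 against 33. Conversely, 2499 members (83.1%) reached a table value of 6 for Mef2Da1, where 40.5% of all regions did, and 507 members (16.9%, interval 15.5 to 18.2) had a table value below 6 for Mef2Da1, although no listed peak was below 6.01. In regions with peaks of both, that held for 224 (4.27%). The median −log10 p of Mef2Da1 in members was 7.00 in the list and 6.78 in the table.

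The values at the edge of the class were as follows. The lowest listed −log10 p for Mef2Da1, 6.01, was shared by 66 members, of which the 3 with the lowest start coordinates are given. Each had a Mef2Da1 height of 44, with 26, 24 and 27 in Mef2Da1-BLOCK. The first, at chromosome 11, 6174644 to 6175185, reached 26 in Mef2Da2 against 22 in Mef2Da2-BLOCK. The next, at chromosome 3, 8717317 to 8717869, had 24 against 7, and the last, at chromosome 16, 10351141 to 10352141, had 35 against 13. Just outside were 23 regions with peaks of both whose Mef2Da2 peak had the lowest listed value, also 6.01. The 3 of them chosen in the same way each had a Mef2Da2 height of 40. Mef2Da2-BLOCK stood at 14 in the one at chromosome 8, 15059821 to 15060423, at 13 in the one at chromosome 11, 20796256 to 20796963, and at 22 in the one at chromosome 17, 24171901 to 24172688. Their Mef2Da1 heights were 58, 62 and 57. The edges belong to the thresholds of different lists: the members are those lowest in the Mef2Da1 list, and the regions outside are those lowest in the Mef2Da2 list.

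In position, most members were far from any Mef2Da2 peak. The nearest listed Mef2Da2 peak lay at a median of 31361 bp from the edge of the region. It was within 1 kb in 176 members (5.85%, interval 5.04 to 6.75) and within 100 bp in 6. Regions with no listed peak had a Mef2Da2 peak within 1 kb in 6.46% (5.91 to 7.03), at a median distance of 29587 bp, so the intervals of the shares overlapped. Members within 1 kb of a Mef2Da2 peak had a median Mef2Da2 height of 30, against 28 in the 2830 farther away, and median Mef2Da1 heights of 52 and 51. Mef2Da1 was over 2-fold above Mef2Da2, scaled to total, in 30.1% of the near members and 40.6% of the far ones.

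The 6 members with a Mef2Da2 peak within 100 bp were at the positional edge of the class. At chromosome 8, 86504677 to 86505071, the Mef2Da1 height was 57, while a Mef2Da2 peak with a height of 223 lay 92 bp away. At chromosome 17, 87717178 to 87717679, the Mef2Da1 height was 44 and a Mef2Da2 peak with a height of 96 lay 39 bp away. Mef2Da2 heights inside these 2 regions were 21 and 30.

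Nearly all members were simple in shape: 2988 held 1 Mef2Da1 peak and 18 held 2. The median width of the Mef2Da1 peak in a member was 401 bp (quartiles 326 and 542), against 448 bp in regions with peaks of both. In members with 1 peak, its midpoint lay a median of 32.5 bp from the midpoint of the region, against 35 bp in regions with peaks of both. The Mef2Da1 height of the table equalled that of the highest listed peak in all 3006 members.

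Members were found on each of the 19 chromosomes in the table, at unequal shares. Among regions with a Mef2Da1 peak, the share without a Mef2Da2 peak was highest on chromosome 17, at 194 of 450 (43.1%, interval 38.5 to 47.8), followed by chromosome 2 at 268 of 650 (41.2%, 37.4 to 45.1). It was lowest on chromosome 7, at 98 of 320 (30.6%, 25.6 to 36.0), chromosome 13, at 121 of 392 (30.9%, 26.3 to 35.7), and chromosome 1, at 192 of 620 (31.0%, 27.3 to 34.8). The intervals of chromosomes 17 and 7, the ends of this order, did not overlap, whereas those of neighbours in the order did. That pair was picked by its rank among 19 chromosomes, and regions are not independent replicates, so no difference is read from it. Blocked coverage is given beside this order. Over all combined regions the median Mef2Da1-BLOCK height was 20 on chromosome 17 and 19 on chromosome 2. It was 15.5 on chromosome 7, 17 on chromosome 13 and 18 on chromosome 1. On chromosome 15 it was 22, and 40.4% of the Mef2Da1 regions there were members, whereas on chromosome 8 it was 20 and 34.8% were. The part of blocked coverage in the chromosome shares was not tested.

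**Figure D5:**
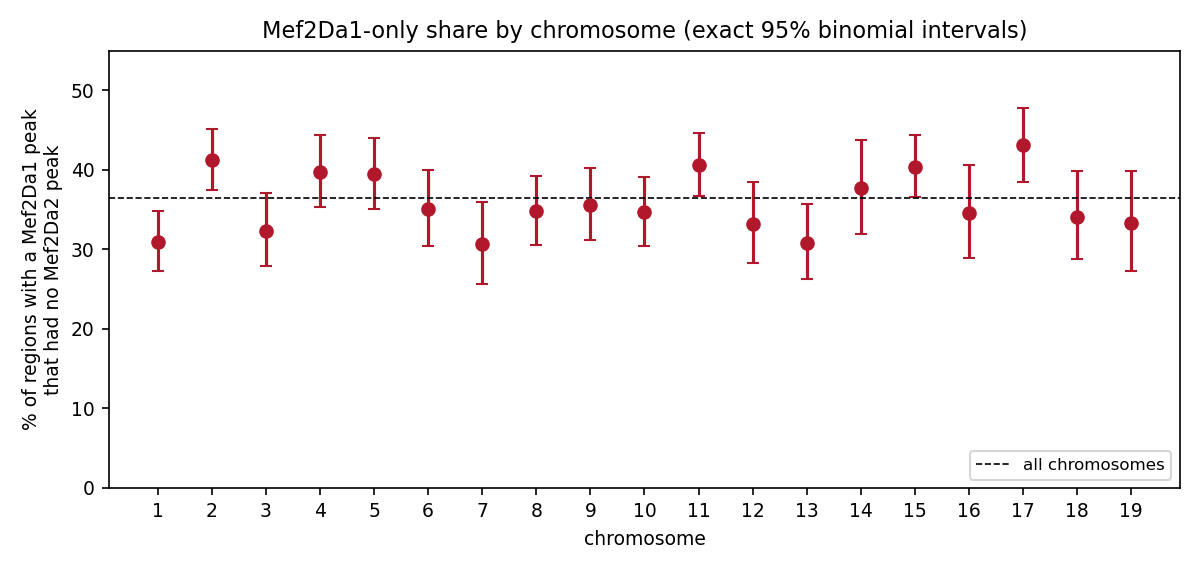
Share of regions with a Mef2Da1 peak that had no Mef2Da2 peak (points, in %) on each of the 19 chromosomes, with exact 95% binomial intervals over regions; the dashed line marks 36.4% over all chromosomes. Chromosome 17 stood at 43.1% and chromosome 7 at 30.6%.

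Members were spread over much of the table. In 1 Mb bins, 1186 of 1919 bins with a combined region held a member, 151 held 5 or more and 16 held 10 or more. The bins named here were picked for their number of members. The bin with the most, 17 members among 67 regions (25.4%), was at 76 to 77 Mb of chromosome 15. The next was at 80 to 81 Mb of chromosome 10, with 16 among 73 (21.9%). At 24 to 25 Mb of chromosome 17, 11 of 28 regions were members (39.3%). Of the 3006 members, 1381 (45.9%) had another combined region within 10 kb, against 55.1% of regions with peaks of both, 41.2% with a Mef2Da2 peak only and 46.6% with no listed peak. Among those 1381, the nearest region was another member in 18.2% (interval 16.2 to 20.3) and a region with a Mef2Da2 peak only in 15.2% (13.3 to 17.2). Over the table, members were 15.2% of regions and those with a Mef2Da2 peak only 20.1%. The other classes were also below 20.1%. A region with a Mef2Da2 peak only was nearest in 18.1% with peaks of both, 18.5% with a Mef2Da2 peak only and 16.6% with no listed peak. A member was nearest in 12.6%, 13.4% and 15.8% of these classes. Chromosome shares and local density are part of these neighbour values, and their part was not tested.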

How the data were processed

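ChIP-seq libraries of Mef2Da1, Mef2Da1-BLOCK, Mef2Da2 and Mef2Da2-BLOCK (1 each) were grouped by sample title. Chromatin was cut with MNase and sonication and amplified by PCR before sequencing, per the labels' protocols, so heights can include preferred cut sites and PCR copies. Reads were aligned with BWA 0.5.9 to mm9, per the submitters' processing notes; the sources used here do not name the peak caller, its filters, the depth or how combined regions were made. The coverage signal (height), the −log10 p values and, for blocked libraries, a score that is sometimes below 0 are the authors' deposited values. Each table column was tied to a sample by the name that sample's peak list shares with it.

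Peaks and regions were intersected as 1-based closed intervals; table coordinates are printed as given. Ratios used a pseudocount of 1. No p-value was computed, as each group had 1 library. Regions named are the 10 members highest in Mef2Da1, the 5 with the largest scaled ratio at or above the median Mef2Da1 height, the 5 highest in Mef2Da2 and 3 on each side of the list thresholds. The 8 members with a Mef2Da2 height of 40 or more, blocked coverage in them, the widest member and members within 100 bp of a Mef2Da2 peak were chosen after their values were seen. Members, classes and bands were chosen with earlier results of these data known. Overlap code was tested on simulated intervals. The work was done in Python 3.11.15 with SciPy 1.17.1, pandas 2.3.3 and NumPy 2.4.6, and plots were drawn with Matplotlib 3.10.9.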

Additional observations from a re-analysis of the deposited data

How the results depend on the processing

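The count of 3006 members was the same when the overlap had to cover at least 50% of the shorter interval and was 2907 with Mef2Da2 peaks widened by 500 bp. With only the Mef2Da1 peaks at or above the median −log10 p it was 716, by construction. The share of members at least 2-fold above Mef2Da1-BLOCK, 72.4%, was 2.59% scaled to total height and 61.2% with a pseudocount of 5. Over all regions it was 64.7% unscaled and 7.63% scaled, so members stood above that share unscaled and below it scaled. Before scaling, the summed heights over the combined regions were 973579 for Mef2Da1 and 377117 for Mef2Da1-BLOCK. Scaling to total height sets these sums equal, so it takes out enrichment that the regions share. It is not a scaling to depth, and nothing is read from the scaled share. The share over 2-fold higher in Mef2Da1 than in Mef2Da2, 39.95%, was 28.7% scaled to the median ratio, 9.02% scaled to the totals of the blocked controls and 32.3% with a pseudocount of 5. Over all regions it was 9.62%, and 6.20% and 1.63% with these scalings. For either share, the value over all regions with a pseudocount of 5 was not computed. Both shares thus depended on scaling, and which scaling is right was not tested. A Mef2Da2 peak lay within 500 bp of 3.29% of members and within 5 kb of 17.5%, against 5.85% within 1 kb. Of 12 alternatives, 8 moved the value past its bound (1.5 times for counts, the 95% interval for shares) and 4 did not. The direction of the moves at 500 bp and 5 kb was fixed by construction. The 50% overlap rule gave the same 3006 members, so the shares under it could not change. The tally is therefore not a measure of stability. No paired analysis was possible because each group had 1 library and no result came from a test. Promoter shares, gene lists, MEF2, AP-1 and E-box motifs and their alternatives were not run, for lack of a genome or annotation of mm9. Unknown depth limits each comparison of heights between libraries.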
